A study of Mus musculus with 14 samples.

Results

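Chemokine receptors are cell surface proteins that couple to inhibitory G proteins and steer cells along gradients of small secreted proteins, the chemokines. The 9 receptor genes described here are Cxcr4, Cxcr2, Cxcr3, Cxcr5, Ccr1, Ccr2, Ccr7, Ccr9 and Cx3cr1. They were chosen by name, with earlier results of these data known, and all 9 were found among the 52550 genes of the count table. In bone marrow, CXCR4 binds CXCL12 made by stromal cells and holds stem and progenitor cells in their niche. CCR2, the receptor for CCL2 and CCL7, releases monocytes into the blood, and CXCR2 does so for neutrophils. CCR7, CXCR3, CXCR5 and CCR9 are best known for placing lymphocytes in lymph nodes, inflamed tissue, follicles and gut, and CX3CR1 marks monocytes and macrophages that bind fractalkine.

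RNA was measured in 14 mouse samples by sequencing of total RNA after removal of ribosomal RNA. There were 4 WT and 4 Mir139KO samples of C57BL/6 bone marrow in which stem and progenitor cells (HSPCs) had been enriched, and 6 MLL-AF9 samples. Mir139KO mice lack the gene of the microRNA miR-139. MLL-AF9 cells are WT HSPCs into which the leukemia fusion gene MLL-AF9 was brought by a retrovirus. Of these cultures, 3 carried the neomycin vector (neo, replicates 1 to 3) and 3 the puromycin vector (puro, replicates 4 to 6). They were grown with SCF, GM-CSF and the interleukins IL-3 and IL-6, selected with the drug and replated in MethoCult, whereas the HSPCs were taken here as lysed after isolation, which the labels do not state for each sample. Cultured HSPCs lacking the fusion gene were not analysed here, so effects of the fusion gene, of culture and of selection cannot be told apart. The labels do not say whether samples came from separate animals or transductions, and p-values measure the spread between these samples only.

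Total counts were 35016668 to 45877994 per library. Mir139 had 0 counts in all 14 libraries, so the deletion could not be checked here. The HSPC samples held markers of several cell types. The summed level of 9 stem and progenitor markers was 405 to 602 CPM (counts scaled to the library total) in HSPC samples, that of 8 neutrophil markers 381 to 11750 CPM and that of 7 erythroid markers 1064 to 1548 CPM. A single noncoding RNA, Gm26917, took 17.0 to 35.4% of the counts of the HSPC libraries and split both genotypes into 2 libraries under and 2 over 25%. MLL-AF9 replicates 4 and 6 were the most alike of the 15 pairs of MLL-AF9 libraries, with a chi-square per degree of freedom of 8.33 between their counts, above the value of about 1 that sampling noise gives, and were kept as separate samples. Levels are given as CPM scaled with TMM factors. In bulk samples, fewer cells of a type and less RNA per cell cannot be told apart.

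The sequence matches of miR-139-5p, the guide strand of miR-139, are shown because the HSPC comparison is of animals without it. Its mature sequence in RefSeq lies at chr7:101475382-101475403 on the plus strand of GRCm38.p6, with the seed (bases 2 to 8) in capitals.
miR-139-5p: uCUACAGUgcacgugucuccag
The seed match ACTGTAG was found in the 3′ UTRs of 3 of the 9 receptors and in 10.7% of 21699 protein-coding genes with an annotated stop codon. Any of these that lack an annotated 3′ UTR count as having no match. Cxcr4 held 2 matches that start 8 bases apart, in a 3′ UTR of 644 bases, Cxcr3 held 1 and Ccr9 1. The windows from GENCODE M21 transcripts on GRCm38 are given 5′ to 3′ with the matches in capitals, at chr1:128588556-128588582 on the minus strand, chrX:101731926-101731944 on the minus strand and chr9:123783932-123783950 on the plus strand.
Cxcr4: tgtaggACTGTAGaACTGTAGaggaag
Cxcr3: actggaACTGTAGcctgcg
Ccr9: tcccacACTGTAGtgaccg
For miR-139-3p, the other strand, no receptor held a seed match. A match is a description of the letters and not evidence of binding.

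Cxcr4 had the highest level per exon length of the 9 receptors in WT HSPCs, at 190 ± 32.6 CPM per kilobase (RPKM; SD, n = 4), and in Mir139KO HSPCs, at 195 ± 23.9 RPKM (SD, n = 4). Its lowest HSPC library lay above the highest library of every other receptor. Next in WT HSPCs were Cxcr2 at 10.2 ± 8.86, Cx3cr1 at 8.91 ± 1.87, Ccr2 at 8.04 ± 7.23, Ccr1 at 6.86 ± 5.25, Cxcr3 at 4.84 ± 2.06 and Ccr7 at 3.88 ± 1.44 RPKM (SD, n = 4). The ranges of each of these neighbours overlapped, so their order is not set. Cxcr5 at 0.880 ± 0.167 RPKM (SD, n = 4) lay apart from both neighbours, and Ccr9 was lowest at 0.0161 ± 0.0122 RPKM (SD, n = 4). In Mir139KO HSPCs the order was the same but for Ccr1 and Ccr2, whose ranges overlapped.

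The order was another one in the MLL-AF9 cultures. In the neo cultures Cxcr4 was again highest, at 38.7 ± 9.97 RPKM (SD, n = 3), followed by Ccr1 at 5.99 ± 2.83 RPKM, while Ccr2 was at 0.523 ± 0.272 RPKM. In the puro cultures Ccr2 had the highest mean, 40.3 ± 20.6 RPKM (SD, n = 3), beside Cxcr4 at 38.5 ± 1.35 RPKM, and their ranges overlapped. Cxcr3 was last of the 9 in both kinds of culture.

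**Figure D1:**
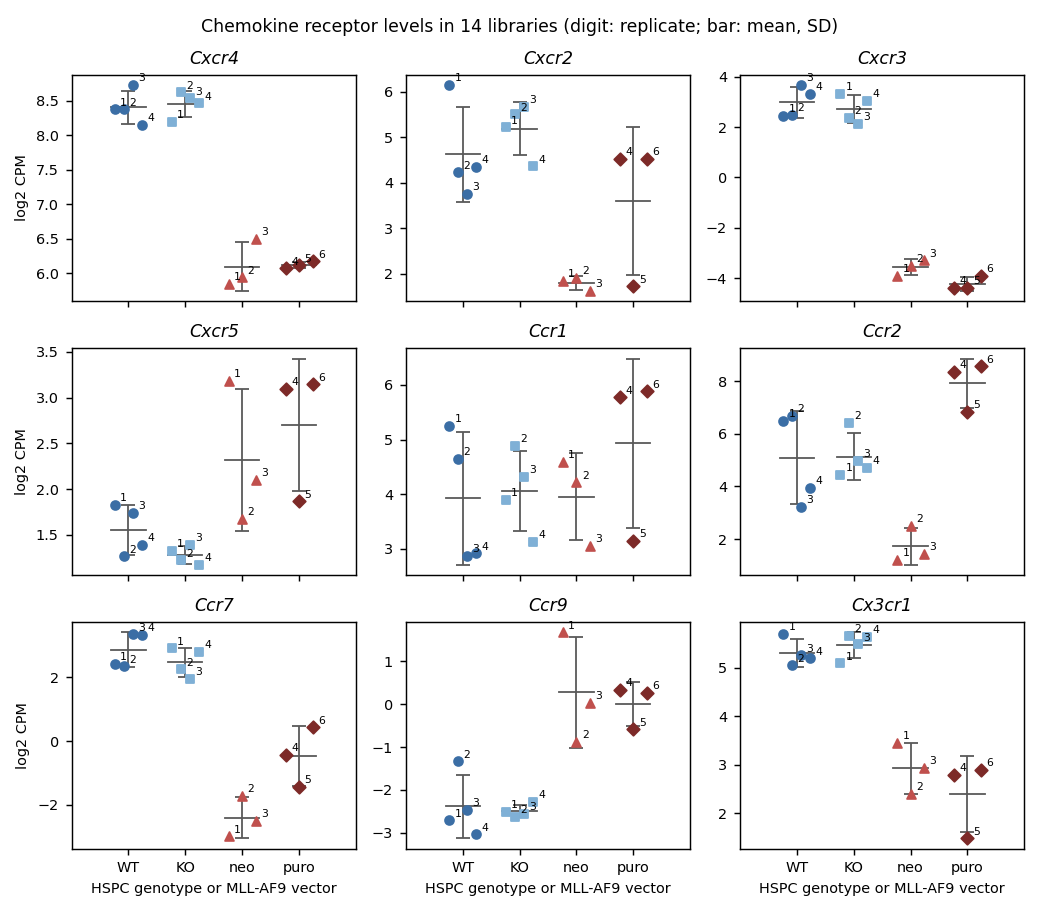
Level of each receptor in each library, as log2 CPM with a prior count of 2 (vertical axes differ between panels). Points are libraries with the replicate number beside them, and bars give the mean and SD of WT HSPCs, Mir139KO (KO) HSPCs, neo and puro MLL-AF9 cultures. Cxcr4, Cxcr3, Ccr7 and Cx3cr1 lie lower in all 6 cultures than in all 8 HSPC samples, and Ccr2 separates the neo from the puro cultures.

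MLL-AF9 cells were compared with WT HSPCs to see which receptors differ between transformed cells and the cells they were made from. Of the 9 receptors, 2 were higher in MLL-AF9 cells (Ccr9 and Cxcr5), 4 were lower (Cxcr4, Cxcr3, Ccr7 and Cx3cr1) and 3 did not pass the test (edgeR quasi-likelihood test, Benjamini-Hochberg adjusted p under 0.05 over all genes tested). The background was broad, as 62.2% of the 17077 genes tested passed, 32.8% higher and 29.4% lower. The median log2 fold change of the 9 receptors was -1.65, beside 0.14 over all genes tested. The groups did not overlap for 5 of the 9 receptors, beside 50.5% of all genes tested. Against Mir139KO HSPCs, a comparison that shares the MLL-AF9 samples, 2 receptors were higher and 5 lower, where 69.3% of 16953 genes passed, 37.3% higher and 31.9% lower. There the groups did not overlap for 6 of the 9, beside 58% of all genes tested.

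Cxcr4 fell to a similar level in all 6 cultures. Its level was 332, 332, 425 and 284 CPM in WT HSPC replicates 1 to 4 and 293, 394, 371 and 352 CPM in Mir139KO HSPC replicates 1 to 4. The cultures had 57.7, 61.5 and 90.7 CPM in the neo cultures and 67.3, 69.5 and 72.2 CPM in the puro cultures. Every culture lay below every HSPC sample. Cxcr4 was 4.99-fold lower than in WT HSPCs (log2 fold change -2.32, SE 0.23, adjusted p = 9.98e-06) and 5.17-fold lower than in Mir139KO HSPCs (log2 fold change -2.37, SE 0.19, adjusted p = 1.34e-06).

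The transcript of Cxcl12, the CXCR4 ligand, was nearly absent from the cultures. It had 0, 0 and 2 counts in neo and 0, 1 and 0 counts in puro cultures, against 34.3 to 86.0 CPM in WT HSPCs. The pooled ratio of WT HSPCs over MLL-AF9 cells was 5418 (95% exact interval 1853 to 26278, counting error only, from 3 counts in the cultures). In HSPC samples the level of 6 stroma and endothelium markers, cell types known to make CXCL12, summed to 282 to 2331 CPM. In MLL-AF9 cells it was 2.35 to 15.8 CPM. Of the 6 markers 5 were lower than in WT HSPCs, beside 29.4% of all genes tested. The part of these cell types in the Cxcl12 difference was not tested.

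Cxcr3, the receptor for interferon-induced chemokines on T and NK cells, was close to the limit of detection in the cultures. Its level was 5.39, 5.52, 12.7 and 9.92 CPM in WT HSPC replicates 1 to 4 and 9.89, 5.13, 4.35 and 8.12 CPM in Mir139KO HSPC replicates 1 to 4. The cultures, replicates 1 to 6, held 1, 2, 3, 0, 0 and 1 counts, and 3 counts correspond to 0.0550 to 0.0600 CPM there. Cxcr3 met the count filter through the HSPC samples alone, so it could enter the test only as a gene that was lower in the cultures. The pooled ratio of WT HSPCs over MLL-AF9 cells was 343 (95% exact interval 166 to 855, counting error only), with an adjusted p of 2.43e-06, and against Mir139KO HSPCs it was 282 (95% exact interval 136 to 704), with an adjusted p of 8.52e-07.

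Ccr7, which guides T cells and dendritic cells to lymph nodes, also fell. It was 5.33, 5.08, 10.2 and 10.1 CPM in WT HSPC replicates 1 to 4, 0.0775, 0.257 and 0.128 CPM in the neo cultures and 0.699, 0.320 and 1.31 CPM in the puro cultures. No culture reached the lowest HSPC sample. The log2 fold change was -4.05 against WT HSPCs (SE 0.69, adjusted p = 3.99e-04) and -3.65 against Mir139KO HSPCs (SE 0.66, adjusted p = 3.65e-04).

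Cx3cr1, the fractalkine receptor, was 52.3, 33.1, 38.4 and 36.8 CPM in WT HSPC replicates 1 to 4. It was 10.9, 5.23 and 7.60 CPM in the neo cultures and 6.87, 2.74 and 7.40 CPM in the puro cultures. All cultures lay below all HSPC samples, at 5.96-fold below WT (log2 fold change -2.58, SE 0.35, adjusted p = 9.65e-05) and 6.76-fold below Mir139KO (log2 fold change -2.76, SE 0.32, adjusted p = 1.73e-05).

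Markers of many mature cell types were lower in MLL-AF9 cells, those of cells that carry these receptors among them. The fall was not limited to mature cells. Of 9 stem and progenitor markers 6 were lower and 1 higher than in WT HSPCs, with a median log2 fold change of -5.00. Of 8 neutrophil markers 2 were lower and 0 higher. Of 8 T cell markers 6 were lower in MLL-AF9 cells than in WT HSPCs, with a summed level of 10.5 to 18.4 CPM against 63.8 to 117 CPM. All 6 NK cell markers were lower, at 1.76 to 12.5 CPM against 71.0 to 131 CPM, and Klrb1c and Gzma had 0 counts in all cultures. Of 8 dendritic cell markers, 7 were tested and 6 were lower, at 5.23 to 30.6 CPM against 185 to 347 CPM. Monocyte and macrophage markers were mixed, with 4 of 9 lower and 1 higher, at 403 to 2299 CPM against 2478 to 4242 CPM. All 7 erythroid, all 5 plasma cell and all 6 mast cell, basophil and eosinophil markers were lower as well. Over all genes tested, 29.4% were lower. Under 10 counts in every culture were 4 T cell, 4 NK cell, 3 erythroid and 3 plasma cell markers, among others. Such markers met the count filter through the HSPC samples alone and could enter the test only as lower. The part of these cell types in the lower Cxcr3, Ccr7 and Cx3cr1 was not tested.

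Ccr9, the thymus and gut homing receptor whose ligand is CCL25, rose from a very low level. HSPC samples held 2 to 15 counts, or 0.105, 0.349, 0.132 and 0.0735 CPM in WT replicates 1 to 4. The neo cultures had 3.16, 0.495 and 0.971 CPM and the puro cultures 1.22, 0.620 and 1.16 CPM. Every culture was above every HSPC sample, and neo replicate 1 was highest. Ccr9 met the filter of 10 counts through the cultures, at 25 to 163 counts, as only WT replicate 2 of the HSPC samples reached 10. It could therefore enter the test only as a gene that was higher in the cultures. The log2 fold change was 2.90 against WT HSPCs (SE 0.68, adjusted p = 2.86e-03) and 3.24 against Mir139KO HSPCs (SE 0.61, adjusted p = 5.15e-04). The call against WT was lost with low-share HSPC libraries only (log2 fold change 2.44, adjusted p = 0.0576) and with a correction for GC content and a replicate block together (2.02, adjusted p = 0.0655). The annotated Ccr9 gene overlaps 6 other genes and shares 21.5% of its exon bases with them on either strand. One of these, AC165425.1 on the opposite strand, was itself higher in MLL-AF9 cells than in WT HSPCs (log2 fold change 4.15, SE 0.87, adjusted p = 1.44e-03). The strand setting of the counting is not given in the sources used here, so reads of the overlapping genes cannot be told apart.

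Ccl25 rose as well. It was 20.8, 20.1, 4.59 and 5.03 CPM in WT HSPC replicates 1 to 4, and 39.5 to 47.5 CPM in neo and 55.9 to 67.7 CPM in puro cultures. WT replicates 1 and 2 are low-share and 3 and 4 high-share libraries, and the part of that split in the rise was not tested. The log2 fold change against WT HSPCs was 2.06 (SE 0.46, adjusted p = 2.24e-03) and against Mir139KO HSPCs 2.60 (SE 0.36, adjusted p = 4.88e-05).

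Cxcr5, which places B cells and helper T cells in follicles, was higher in MLL-AF9 cells by a small margin. It was 3.50, 2.35, 3.30 and 2.57 CPM in WT HSPC replicates 1 to 4 and 2.45, 2.28, 2.57 and 2.21 CPM in Mir139KO HSPC replicates 1 to 4. The cultures had 9.05, 3.15 and 4.23 CPM (neo) and 8.51, 3.60 and 8.79 CPM (puro). Replicates 1, 4 and 6 were high, and replicate 2 lay within the WT range. Against WT HSPCs the log2 fold change was 1.07 (SE 0.42, adjusted p = 0.0394). This call was lost when any 1 of the 4 WT samples or MLL-AF9 replicate 1, 4 or 6 was left out, with log2 fold changes of 0.93 to 1.22 over the 10 such fits, and without both replicates 4 and 6 it was 0.79 (adjusted p = 0.150). Against Mir139KO HSPCs, where the groups did not overlap, it was 1.36 (SE 0.39, adjusted p = 8.06e-03). That call was lost with low-share or high-share HSPC libraries only (1.31 and 1.34, adjusted p = 0.0812 and 0.0697). The B cell markers fell, all 8 tested being lower than in WT HSPCs, beside 29.4% of all genes tested.

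Ccr1, Ccr2 and Cxcr2 are receptors of monocytes and neutrophils, and none of them passed the test against WT HSPCs. The spread among the 6 cultures was wide for all 3. Ccr1 was 24.1, 18.6 and 8.30 CPM in the neo cultures and 54.6, 8.86 and 59.0 CPM in the puro cultures, beside 7.29 to 38.0 CPM in WT HSPCs. Its log2 fold change was 0.57 (SE 0.66, 95% interval -0.86 to 1.995, adjusted p = 0.468). With the GC correction and the replicate block together, where 4 of the 6 cultures bear on the difference, Ccr1 passed as lower (-1.37, adjusted p = 0.0427), as did Ccr2 (-4.33, adjusted p = 0.0461). Cxcr2 was 3.55, 3.68 and 3.02 CPM in the neo cultures and 23.0, 3.24 and 23.1 CPM in the puro cultures, beside 13.5 to 71.2 CPM in WT and 20.5 to 50.9 CPM in Mir139KO HSPCs. Replicates 4 and 6 reached into the HSPC range and the other 4 cultures did not.

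The log2 fold change of Cxcr2 was -1.65 against WT HSPCs (SE 0.73, adjusted p = 0.0650) and -1.98 against Mir139KO HSPCs (SE 0.65, adjusted p = 0.0160). The call against Mir139KO was lost with total counts only, with either share class only and with puro cultures only, at -2.31 to -1.21 (adjusted p = 0.0523 to 0.150). Against WT it passed the test without MLL-AF9 replicate 4 (-2.08, adjusted p = 0.0270), without replicate 6 (-2.07, adjusted p = 0.0278) and without both (-3.20, adjusted p = 6.74e-04). Of the Cxcr2 ligands, Cxcl2 and Cxcl3 were higher in MLL-AF9 cells than in WT HSPCs, at 8.33 ± 4.54 against 0.238 ± 0.347 CPM and 3.39 ± 2.13 against 0.0298 ± 0.0261 CPM (SD, n = 6 and 4), with adjusted p of 4.97e-04 and 1.15e-04. Ppbp, another of its ligands and a platelet protein, was lower, at 2.12 ± 2.42 against 51.8 ± 35.2 CPM (SD, n = 6 and 4; adjusted p = 8.89e-04). These 3 ligands were singled out after their values were seen. Cxcl2 and Cxcl3 lay low in WT HSPCs, Cxcl3 close to the limit of detection. Both needed the cultures to meet the count filter, which favours a call of higher.

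**Figure D2:**
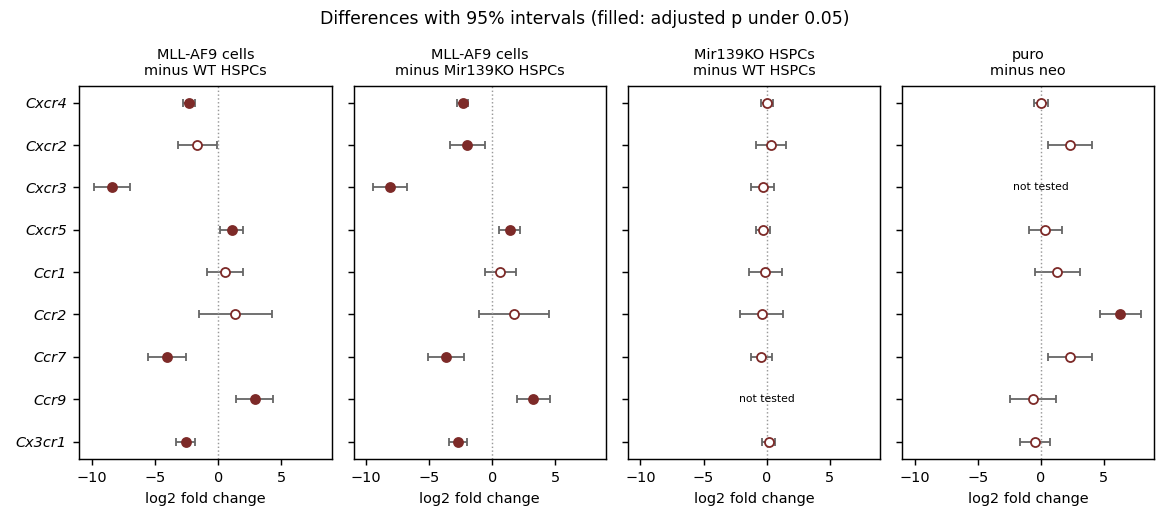
Log2 fold change of each receptor with its 95% interval in the 4 comparisons, from edgeR. Filled points passed an adjusted p under 0.05 and open points did not. Between HSPC genotypes all points lie near 0, and between vectors Ccr2, at 6.30, is the only filled point.

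The 2 vectors were compared within the MLL-AF9 cultures, where Ccr2 was the 1 receptor of 9 that passed the test, against 0.873% of 16503 genes, 0.564% higher and 0.309% lower in puro cultures. Ccr2 was 2.27, 5.64 and 2.69 CPM in the neo cultures and 327, 114 and 377 CPM in the puro cultures. All puro cultures were far above all neo cultures, including replicate 5, which was low for Ccr1 and Cxcr2. The difference was 78.6-fold (log2 fold change 6.30, SE 0.69, 95% interval 4.66 to 7.93, adjusted p = 0.0261). With 3 samples a side the call did not survive when any 1 of replicates 1, 2, 3, 4 or 6 was left out, the adjusted p being 0.0691 to 0.146, while the log2 fold change stayed at 6.00 to 6.79 over all 6 such fits. With replicates 4 and 6 summed into 1 sample it was 6.08 (adjusted p = 0.0908).

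The HSPC level of Ccr2 lay between the 2 vectors. WT HSPC replicates 1 to 4 had 90.4, 102, 9.34 and 15.3 CPM and Mir139KO HSPC replicates 1 to 4 had 21.6, 85.2, 31.3 and 26.3 CPM. Over all 6 cultures the log2 fold change against WT HSPCs was 1.34 (SE 1.33, adjusted p = 0.395) and against Mir139KO HSPCs 1.73 (SE 1.28, adjusted p = 0.244). With the neo cultures alone it was -3.93 against WT (adjusted p = 4.06e-03) and -3.55 against Mir139KO (adjusted p = 4.77e-05). With the puro cultures alone it was 2.35 (adjusted p = 0.0349) and 2.74 (adjusted p = 1.09e-03).

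The other receptors did not pass the test between vectors. Ccr7 differed by 2.34 on the log2 scale (SE 0.73, adjusted p = 0.225) with groups that did not overlap, Cxcr2 2.30 (SE 0.73, adjusted p = 0.229) and Ccr1 1.30 (SE 0.75, adjusted p = 0.530). Without replicate 5 Cxcr2 passed, at 2.79 (adjusted p = 5.80e-03). Cxcr4 differed by -0.01 on the log2 scale (95% interval -0.56 to 0.54), Cxcr5 by 0.36, Cx3cr1 by -0.46 and Ccr9 by -0.62. Cxcr3 had too few counts for the fit, and an exact two-sided permutation test of its log2 CPM gave p = 0.10, the smallest that 3 against 3 allows. The groups did not overlap for Ccr2, Ccr7 and Cxcr3, 3 of the 9 receptors, beside 19.7% of all genes tested. Cxcr3 was not among the genes tested. Its nearest libraries held 1 count each, 0.0194 CPM in neo replicate 1 and 0.0190 CPM in puro replicate 6. Its separation and its permutation p thus rest on library size and are not read as a difference.

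Monocyte markers are given beside Ccr2, a monocyte receptor. Their summed level was 841 to 2299 CPM in puro and 403 to 899 CPM in neo cultures, so the ranges overlapped. Of the 8 tested, 0 passed by edgeR, 4 had an unadjusted p under 0.05, and DESeq2 called 3. Csf1r, the CSF1 receptor, was 71.1, 8.40 and 65.0 CPM in puro replicates 4, 5 and 6 and 6.09, 6.83 and 2.82 CPM in the neo cultures (edgeR adjusted p = 0.151). It was thus high in replicates 4 and 6, whereas Ccr2 was high in replicate 5 too. Ly6c2, another marker of this list, was 374, 596 and 400 CPM in puro replicates 4, 5 and 6. In the neo cultures it was 146, 237 and 214 CPM, so Ly6c2, like Ccr2, was higher in every puro culture, replicate 5 included. Neutrophil markers summed to 286 to 1996 CPM in puro and 1785 to 4042 CPM in neo cultures, and Camp, a granule protein, was the 1 of 7 that was lower. Stem and progenitor markers summed to 535 to 1057 CPM in puro and 174 to 332 CPM in neo cultures, without overlap. Of the 7 tested, 0 passed by edgeR, 5 had an unadjusted p under 0.05, and DESeq2 called 4. The part of maturation state in the Ccr2 difference was not tested.

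Ccr2 lies in a block of 9 protein-coding genes on chromosome 9 that holds 6 chemokine receptor genes beside Ccr9, in the order Ccr9, Lztfl1, Fyco1, Cxcr6, Xcr1, Ccr1, Ccr1l1, Ccr3 and Ccr2, over 435 kb (chr9:123678439-124113557, GRCm38). Ccr1 was high in replicates 4 and 6 and not in replicate 5, whereas Ccr2 was high in all 3 puro cultures. Ccr3, the gene upstream of Ccr2, held 0 to 7 counts in every culture, and Fyco1, which is no receptor, differed by 0.16 (SE 0.37, adjusted p = 0.882). Lztfl1 and Cxcr6 had 0 counts in all 14 libraries, HSPCs included. The dendritic cell marker Irf8, the B cell marker Ms4a1 and 6 of the 24 ligands (Ccl2, Ccl6, Ccl19, Ccl21a, Cxcl10 and Cxcl11) were also at 0 in all 14. Such rows may be gaps of the table and are not read as absence of the transcript, and how reads on overlapping genes were counted is not given in the sources used here.

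**Figure D3:**
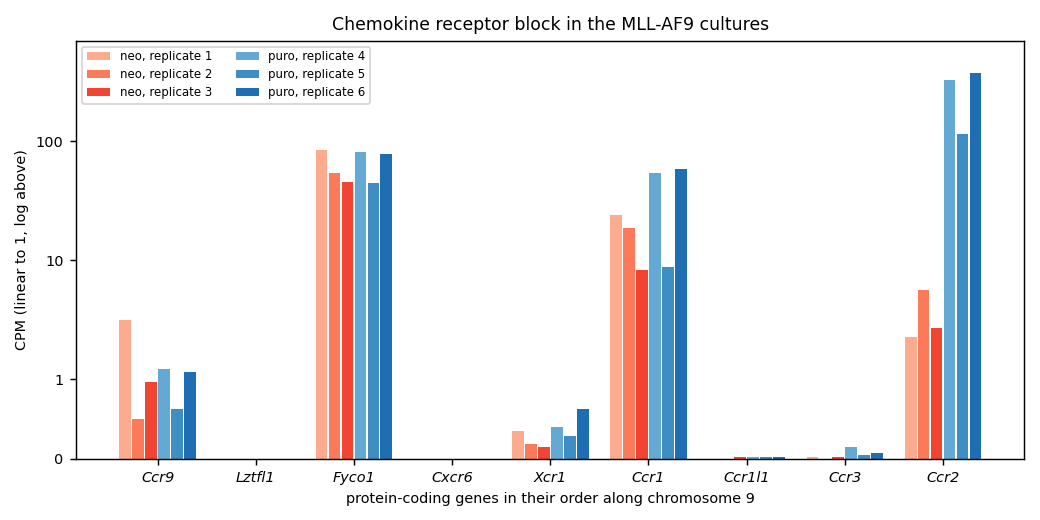
CPM of the 9 protein-coding genes of the chromosome 9 block, in genome order, with 1 bar for each MLL-AF9 culture (axis linear to 1 CPM and logarithmic above). Ccr2 is high in all 3 puro cultures, Ccr1 is highest in replicates 4 and 6, and levels are to be compared within a gene only.

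The promoters of Ccr1 and Cxcr2 are shown because both genes were high in MLL-AF9 replicates 4 and 6 and low in replicate 5. They are 250 bases before the RefSeq start of each gene, at chr9:123968693-123968942 on the minus strand and chr1:74153744-74153993 on the plus strand of GRCm38.p6. Motifs searched on both strands were GAGGAA for PU.1, a transcription factor of myeloid cells, TTGCNNAA for C/EBP, TGTGGT for RUNX and AGATAA for GATA factors, and matches are in capitals.
Ccr1: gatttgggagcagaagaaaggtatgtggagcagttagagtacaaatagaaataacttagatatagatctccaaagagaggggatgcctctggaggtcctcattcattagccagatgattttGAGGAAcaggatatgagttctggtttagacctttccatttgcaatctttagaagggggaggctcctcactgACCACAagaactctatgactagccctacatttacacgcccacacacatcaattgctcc
Cxcr2: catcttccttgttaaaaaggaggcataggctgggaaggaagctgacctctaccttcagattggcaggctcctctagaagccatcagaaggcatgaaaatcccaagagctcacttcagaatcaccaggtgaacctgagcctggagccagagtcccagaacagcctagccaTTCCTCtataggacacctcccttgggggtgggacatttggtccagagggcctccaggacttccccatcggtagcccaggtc
Both held 1 PU.1 match, and Ccr1 also 1 RUNX match on the reverse strand. Windows were at hand for 7 of the 9 receptors. Cxcr3, nearly absent from all cultures, held the same kinds of match as Ccr1, and Ccr2, Cxcr4, Ccr9 and Cx3cr1 held no PU.1 match. Of all 32851 windows of this length, 23.3% held the PU.1 letters, 9.56% the C/EBP, 14.1% the RUNX and 9.99% the GATA letters. These are matches of letters only.

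Mir139KO HSPCs were compared with WT HSPCs to see whether loss of miR-139 changes the receptors. None of the 8 receptors that could be tested passed, none had an unadjusted p under 0.05, and 0% of 15056 genes passed (edgeR). Of all genes, 86 had an unadjusted p under 0.05 by edgeR and 90 by DESeq2, which also called 0. These are fewer than evenly spread p-values would give. With the Gm26917 share class as a term in edgeR, 536 genes and 1 receptor had such a p, and 0 genes passed. With high-share libraries only it was 558 genes and 3 receptors, and with low-share libraries only 3279 and 0, with 1 gene passing in each. No receptor passed in any of these fits. Cxcr4, with its 2 seed matches, was 343 ± 58.9 CPM in WT and 353 ± 43.2 CPM in Mir139KO HSPCs (SD, n = 4 each), a log2 fold change of 0.03 (95% interval -0.46 to 0.52). Cxcr3 was 8.38 ± 3.57 and 6.87 ± 2.59 CPM (SD, n = 4 each), a log2 fold change of -0.30 (95% interval -1.20 to 0.61). Ccr9, at 2 to 15 counts, was compared by an exact two-sided permutation test (p = 0.914, smallest possible 0.0286).

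For the receptors without a seed match the log2 fold changes were -0.09 for Ccr1 (95% interval -1.40 to 1.22), -0.41 for Ccr2 (-2.13 to 1.32), -0.42 for Ccr7 (-1.24 to 0.40), 0.32 for Cxcr2 (-0.87 to 1.51), -0.31 for Cxcr5 (-0.86 to 0.25) and 0.16 for Cx3cr1 (-0.38 to 0.69). All adjusted p were above 0.99. The WT and Mir139KO ranges overlapped for all 9 receptors, beside 0.485% of all genes tested whose ranges did not. The width of the intervals of Ccr1 and Ccr2 leaves room for changes of more than 2-fold in either direction.

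The spread of several receptors within a genotype went with the Gm26917 share. Ccr2 was 31.3 to 102 CPM in the 4 low-share HSPC libraries (WT replicates 1 and 2, Mir139KO replicates 2 and 3) and 9.34 to 26.3 CPM in the 4 high-share libraries. Ccr1 was 19.9 to 38.0 and 7.29 to 14.9 CPM. Ccr7 and Cxcr3 went the other way, at 3.84 to 5.33 and 6.98 to 10.2 CPM for Ccr7 and 4.35 to 5.52 and 8.12 to 12.7 CPM for Cxcr3. These 4 receptors had ranges that did not overlap between the classes. For the other 5 the ranges overlapped, and Cxcr4 averaged 357 and 338 CPM.

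The GC content of the transcripts was 39.1% for Ccr1 and 39.4% for Ccr2, the lowest of the 9, and 53.5% for Ccr7 and 54.2% for Cxcr3, the highest. It was 43.8 to 52.5% for the other 5. The share class was defined from these libraries, so no test was made, and its part in the receptor levels was not tested. With high-share WT libraries only, the log2 fold change of MLL-AF9 cells over WT was 3.39 for Ccr2 and 1.86 for Ccr1, and with low-share WT libraries only it was 0.49 and -0.16. None of these 4 values passed the test. Ccr7, Cxcr3, Cxcr4 and Cx3cr1 were lower in MLL-AF9 cells within either class.

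**Figure D4:**
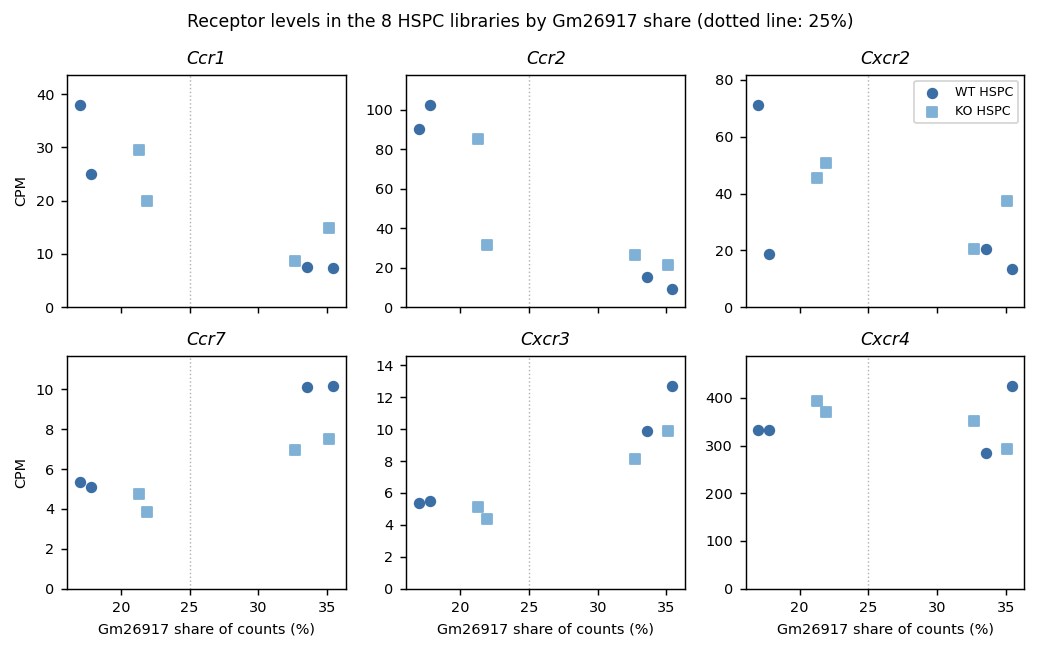
CPM of 6 receptors in the 8 HSPC libraries against the share of counts taken by Gm26917 in percent, with WT as circles and Mir139KO as squares. Ccr1 and Ccr2 lie higher in the 4 libraries under 25%, Ccr7 and Cxcr3 in the 4 above, and Cxcr4 shows no such split.

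Other genes of the pathway were given by lists. Of 9 other signalling chemokine receptors, 3 could be tested in MLL-AF9 cells against WT HSPCs. Ccr4 rose by 1.10 on the log2 scale (SE 0.35, adjusted p = 0.0158), and Ccr3, an eosinophil receptor singled out after its values were seen, was lower, at 0.0489 ± 0.0515 against 2.46 ± 1.496 CPM (SD, n = 6 and 4). Of 5 atypical receptors, which bind chemokines without signalling through G proteins, 3 were tested. Ackr1, also singled out after its values were seen and known from erythroid and endothelial cells, was lower, with 0 counts in all 6 cultures and 2.42 to 4.41 CPM in WT HSPCs. Ccr3, at 0 to 7 counts in the cultures, and Ackr1 met the count filter through the HSPC samples alone. They could enter the test only as genes that were lower.

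Of 24 ligands of the 9 receptors 12 were tested, and 3 were higher and 4 lower in MLL-AF9 cells than in WT HSPCs. This called share of 58.3% was near the 62.2% of all genes tested. Cxcl2, Cxcl3 and Ccl25 were the higher ones. Cxcl12, at 0 to 2 counts in the cultures, could enter the test only as a gene that was lower. Ccl5, a CCR1 ligand made by T and NK cells, was lower by log2 fold change (-5.18, SE 0.46, adjusted p = 5.29e-06), as were Cxcl12, Ppbp and Cx3cl1, the CX3CR1 ligand, at 0.101 ± 0.0490 against 0.740 ± 0.369 CPM (SD, n = 6 and 4).

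Among the 17 tested genes of G proteins and effectors that carry the receptor signal, 3 were higher and 7 lower, a called share of 58.8% near the 62.2% of all genes tested. Gnai3, an inhibitory G protein subunit, rose by 1.94 (SE 0.55, adjusted p = 8.53e-03) on the log2 scale, Elmo1, a partner of the Rac activator DOCK2, by 2.69 (SE 0.33, adjusted p = 5.27e-05), and Rap1b was the third. Gnai3 was 60.4 and 72.9 CPM in low-share WT replicates 1 and 2 but 7.62 and 13.3 CPM in high-share replicates 3 and 4. Rap1b was 123 and 173 against 32.1 and 41.1 CPM. Every culture lay above these values, at 120 CPM or more for Gnai3 and 201 CPM or more for Rap1b. The part of the share class in these rises was not tested. Pik3r5, a subunit of the PI3K gamma complex, fell by 1.48 and Was, an actin regulator, by 1.86. Of 12 genes that end receptor signalling, 0 were higher and 6 were lower, a called share of 50.0%. Grk3, a receptor kinase, differed by -3.73 on that scale (SE 1.11, adjusted p = 0.0110) and Rgs3, which speeds GTP hydrolysis by G proteins, by -5.41 (SE 0.52, adjusted p = 9.35e-06). The median log2 fold change was 0.03 for the effectors and -0.97 for the desensitisation genes, beside 0.14 over all genes tested.

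Against Mir139KO HSPCs the same lists gave 1 higher and 2 lower of 4 other receptors, 0 and 2 of 3 atypical receptors, 3 and 5 of 11 ligands, 3 and 7 of 17 effectors, and 2 and 6 of 12 desensitisation genes. In this order the called shares were 75.0, 66.7, 72.7, 58.8 and 66.7%, beside 69.3% of all genes tested. The largest rise among the desensitisation genes, by the rule for named genes, was Grk5, another receptor kinase, at 1.28 (SE 0.39, adjusted p = 0.0110). Grk5 was not called higher against WT HSPCs, whose replicates 1 to 4 had 17.4, 14.1, 120 and 4.41 CPM. The cultures had 8.14 to 26.6 CPM and Mir139KO HSPCs 4.02 to 8.51 CPM. Between vectors 0 of the 41 tested genes of these 5 lists passed by edgeR, 8 had an unadjusted p under 0.05 and DESeq2 called 2. Between HSPC genotypes 0 of 46 passed by edgeR, 3 had an unadjusted p under 0.05 and DESeq2 called 0.

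The protein-coding genes most like each receptor in pattern were found by the root mean square difference of log2 CPM, centred on the mean of 14 libraries, among 9355 genes. Nearest to Cxcr4 were Slc46a3 (0.27) and Fn3krp (0.28), where the SD of Cxcr4 itself was 1.21. Nearest to Ccr2 were Ifi204 (0.86) and Bicd1 (0.91), against an SD of 2.36, a larger distance than the nearest gene of the other 8 receptors had. Nearest to Ccr1 were Gcnt1 (0.39) and Rbm47 (0.40), to Cxcr2 Pla2g7 (0.49) and Jaml (0.58), to Ccr7 Ephb2 (0.50) and Atp13a2 (0.53) and to Cxcr3 H1fx (0.37) and Epor (0.46). For Cxcr5 they were Muc6 (0.22) and Stkld1 (0.24), for Ccr9 Atl1 (0.37) and Proca1 (0.43) and for Cx3cr1 Kcnj10 (0.32) and Phc1 (0.38).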

How the data were processed

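RNA-seq libraries of 14 samples were used as raw counts per gene, which the authors deposited without normalization. Per the labels and the study's methods, libraries were made with the KAPA RNA HyperPrep Kit with RiboErase, sequenced on a NovaSeq, mapped to GRCm38 with STAR 2.5.3e and counted with featureCounts 1.6.0 per GENCODE gene. How strand and reads on several genes were handled is not given in the sources used here. The 2 deposited tables held the same number in 735700 of 735700 shared cells, and 10 columns of another series were not used.

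Groups came from the sample labels. Each comparison used its own samples and the robust quasi-likelihood F test of edgeR 4.0.16 (R 4.3.3, limma 3.58.1) with TMM factors. A gene was tested if as many samples as the smaller group holds had 10 counts or more, so a gene near the floor in a group could enter through the other group alone. SEs were obtained from log2 fold changes and F. CPM used TMM factors over all 14 libraries, log2 CPM a prior count of 2, and lengths and GC content GENCODE M21. The floor of detection was 3 counts. Ratios of pooled counts have exact binomial intervals. These and the floor cover counting error only, since reads lacking molecular identifiers can repeat a molecule. The edgeR fit, DESeq2 and the GC correction were run on simulated counts with known changes, and the other steps were not. The receptors, gene lists, tests and alternatives were chosen with earlier results of these data known. Genes named from the lists were the called ones, above a mean log2 CPM of 0, that rose most (2 per list) and fell most (2 per list). Those named after their values were seen are marked as such. A further receptor gene is not reported here, and counts over lists leave it out. Nearest patterns were sought among protein-coding genes whose log2 CPM had a mean of 0 or more and an SD of 0.5 or more.

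Alternatives were RLE factors, total counts only, DESeq2 1.42.0, no filter, all 14 samples in a single fit, a replicate block, a GC correction (spline with 5 degrees of freedom), the other table, Gm26917 share classes split at 25%, each vector alone, replicates 4 and 6 summed, and each sample left out. Leaving out both replicates 4 and 6 was added after seeing the data.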

Additional observations from a re-analysis of the deposited data

Results flagged for a closer look

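Ccr2 differed between MLL-AF9 cultures made with the 2 vectors, by 6.30 on the log2 scale (puro over neo, edgeR adjusted p = 0.0261), and was higher in 3 of 3 puro cultures than in every neo culture. It was flagged because the vectors differ under the same contrast with HSPCs. Against WT HSPCs the neo cultures alone gave -3.93 and the puro cultures alone 2.35. The test of the difference itself is the comparison between vectors. The vectors also differ in the selection drug, and the labels give no dates, so vector, drug and any shared handling cannot be told apart. No sample stood apart from its group in the 27 groups of 4 to 6 samples that were looked at.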

How the results depend on the processing

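The calls of Cxcr4, Cxcr3, Ccr7 and Cx3cr1 kept their direction and passed under all 25 alternatives against either HSPC genotype, and Ccr9 under 23 against WT and 25 against Mir139KO HSPCs. Cxcr3 met the count filter through the HSPC samples and Ccr9 through the cultures. Wherever that filter was used their direction was set beforehand, so its stability is no support. Against WT, Cxcr5 passed under 10 of 25 and Cxcr2 under 10, and against Mir139KO HSPCs under 23 and 21. With total counts only, the median of all genes moved from 0.14 to 0.69 against WT and from 0.16 to 0.84 against Mir139KO HSPCs, and the share of called genes that were higher from 52.7 to 68.3% and from 53.9 to 71.4%. Between vectors the number of called receptors, 1, became 3 with DESeq2, 2 with all 14 samples in a fit, 0 with replicates 4 and 6 summed and 0 to 2 with a sample left out. All called genes, 144, became 1326, 692 and 5 under the first 3, 221 without the filter, 270 with the GC correction and replicate block, and 0 to 990 with a sample left out. The cause was not tested.

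Replicate numbers gave no pairing that held for every sample, though so few pairs cannot exclude one. The correlations of same-numbered samples were -0.06 to 0.10 (WT) and 0.02 to 0.19 (Mir139KO) with MLL-AF9 cells, -0.65 to 0.72 between HSPC genotypes and -0.34 to 0.48 between vectors. In the same order, 1 of 4, 2 of 4, 1 of 4 and 2 of 3 samples correlated best with their own number. With the replicate block, which uses neo replicates 1 to 3 and puro replicate 4 only against HSPCs, Ccr2 became -2.58 against WT and -2.59 against Mir139KO HSPCs, and Cxcr5 against WT missed the threshold (0.96, edgeR adjusted p = 0.122). In the same fits all genes called were 9300 against WT, 11455 against Mir139KO and 214 between vectors.

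Other reversals were of log2 fold changes whose main value missed the threshold. For Ccr2, the GC correction with the replicate block gave -4.33 (WT) and -4.35 (Mir139KO), which passed as lower (edgeR adjusted p = 0.0461 and 0.0268), neo cultures only -3.93 and -3.55, and no replicates 4 and 6 -0.84 and -0.43. For Ccr1 the GC correction gave -0.95 and -1.14, with the block -1.37 and -1.61, which also passed as lower (edgeR adjusted p = 0.0427 and 0.0362), neo cultures only -0.17 and -0.10, no replicates 4 and 6 -0.36 and -0.28, and low-share WT libraries -0.16. Between HSPC genotypes, Ccr1 became 0.14 (block), 0.18 (GC), 0.22 (GC and block), 0.65 (high share), 0.14 (share term) and -0.41 to 0.44 with a sample left out. Ccr2 became 0.073, 0.0010, 0.13, 0.93, 0.086 and -1.03 to 0.10 under these, and Cxcr4 -0.028 (total counts), -0.015 (GC), -0.17 (high share) and -0.049 to 0.16. Between vectors, Cxcr4 became 0.016 (total counts), 0.011 (no filter), 0.019 (block), 0.033 (GC), 0.058 (GC and block) and -0.10 to 0.22, and Ccr9 was -1.04 to 0.49 with a sample left out. Leaving out 1 of 3 cultures of a vector left fits of 5 samples. Depth limits Cxcr3 in cultures and Ccr9 in HSPCs, where changes could not be measured at 0 to 15 counts.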
